A study of Mesocricetus auratus with 36 samples.

Results

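The 10 genes described here are the immediate early genes Fos, Fosb, Fosl2, Jun, Junb, Jund, Atf3, Egr1, Csrnp1 and Zfp36, taken by name from the 32340 genes of the count tables. They were chosen with earlier results of these data known. Each has its own row in all 36 tables, each had at least 1 count in every library, and all 10 passed the filter on low counts. Of these, 9 encode proteins that bind DNA or act in the nucleus on transcription. Zfp36 encodes tristetraprolin, which binds messenger RNA, so that the working name "transcription factors" does not cover it. The 10 genes are followed across the 6 groups of the study, with torpor set against each warm group.

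Immediate early genes are switched on within minutes of a stimulus without any new protein being made, and their messengers and proteins are usually short-lived. Fos family proteins (Fos, Fosb, Fosl2) pair with Jun family proteins (Jun, Junb, Jund) to form AP-1, a dimer that binds promoters and enhancers of many genes. Jun proteins can also pair with each other or with Atf3, which is often a repressor, while Fos proteins need a partner. Egr1 is a zinc finger factor that acts through GC-rich sites, and Csrnp1 is a nuclear protein that binds DNA and responds to growth signals. Zfp36 binds AU-rich elements in the tails of short-lived messengers, Fos among them, and speeds their decay. In the brain, Fos and Egr1 are widely used as marks of recent stimulation of a cell.

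RNA came from the ependymal wall of the hypothalamus, collected by laser capture from 36 male golden hamsters, 6 in each group. The strip is rich in tanycytes, glial cells of the ventricular floor. The long photoperiod group lived under 14 h of light at 22 °C and was 8 months old per the labels, although the protocol has such animals taken both before the change of season and at its end, so that some ages are uncertain. The other 5 groups had been moved to 10 h of light and 8 °C. Pre-hibernation animals (4 months old) were taken after 4 weeks there, and late pre-hibernation animals (6 months old) after 8 to 12 weeks, before the first torpor. Animals of interbout euthermia, the warm phase between torpor bouts, were taken 23 h into it, and torpid animals 13 h into a bout. Both were 6 months old and had gone through 3 cycles of torpor and arousal. Refractory animals (8 months old) had stopped hibernating after about 20 weeks and had been warm for at least 2 weeks. All 36 animals carried an implanted temperature logger and were killed under isoflurane. Torpor and interbout euthermia therefore match in day length, room temperature, age and number of cycles, whereas torpor and the other 4 warm groups also differ in 1 or more of these.

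Counts per library ran from 5.16 to 28.54 M (M, 1e6), the median being 22.44 M. Of the 36 libraries, 33 had under 1% of counts on ribosomal RNA genes. The 3 others, refractory 4 (41.8%), pre-hibernation 5 (9.28%) and interbout 6 (7.21%), are called the rRNA-rich libraries below, and they stood high in their groups for Jun and Jund, while refractory 4 and pre-hibernation 5 stood low for Atf3. No torpid library was among them. Summed tanycyte markers (15 of 15 detected) lay between 3515 and 5299 CPM (counts per 1e6 counts of the normalised library) in torpor and between 2897 and 5632 CPM in the warm libraries. Levels are given as CPM, and comparisons as log2 fold changes with their standard error (SE) from edgeR's quasi-likelihood test, with Benjamini-Hochberg adjustment over 17926 genes and a threshold of 0.05.

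Most of these messengers were higher in torpor than in each warm group. Against interbout euthermia 6 of the 10 genes rose (Fos, Jun, Junb, Egr1, Csrnp1 and Zfp36), where 1.13% of all genes tested were higher. Against late pre-hibernation 7 rose (background 1.63%), the additional gene being Atf3. Against pre-hibernation 6 rose (background 1.54%). Against refractory animals (background 6.11%) and against long photoperiod (background 4.32%) 8 rose, with Fosl2 and Atf3 added. The 6 genes that rose against interbout euthermia rose against all 5 warm groups, as did 0.463% of all genes tested. No gene of the 10 fell in any of these comparisons, and at an unadjusted p under 0.05 or with DESeq2 or limma voom the count of falls was likewise 0. Because the 10 genes were chosen with earlier results of these data known, the shares over all genes are a description. They are not a test of the set. The 5 comparisons share the 6 torpid libraries and are not independent of each other. In strips of tissue, a change in the share of one cell type and a change in messenger per cell cannot be told apart.

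**Figure D1:**
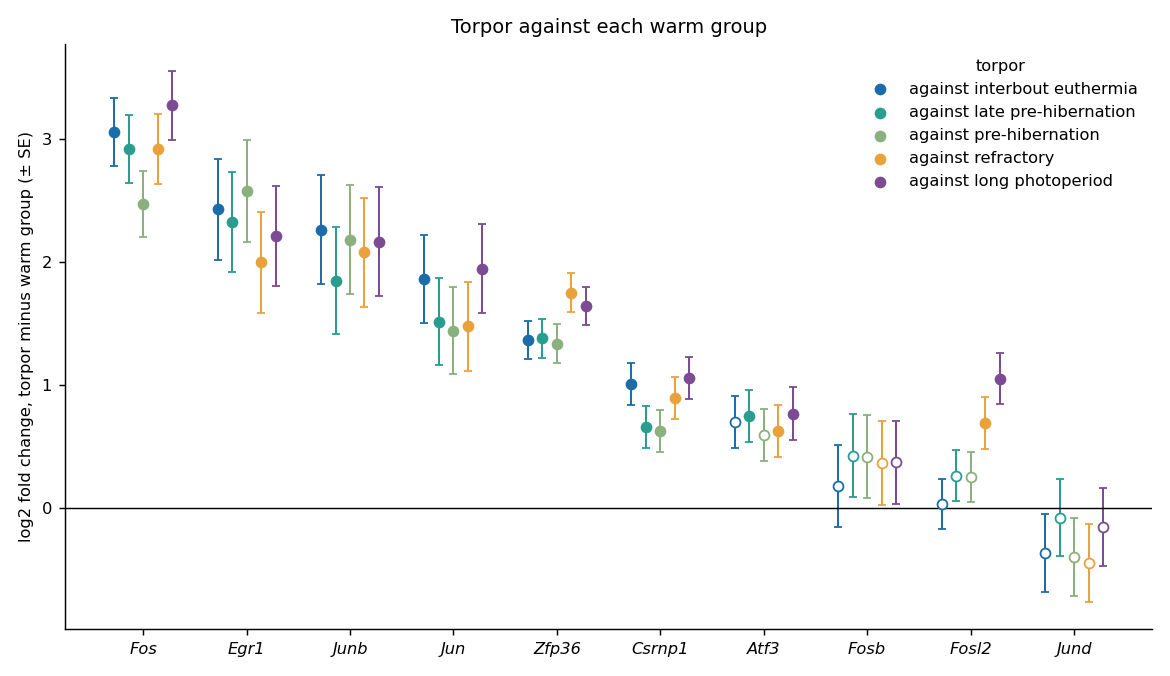
Log2 fold change of torpor against each of the 5 warm groups, for each of the 10 genes, with bars of 1 SE; filled points passed an adjusted p of 0.05 and open points did not. Fos lies between 2.47 and 3.27, highest in 4 of the 5 comparisons (Egr1, at 2.58, is above it against pre-hibernation). Against interbout euthermia, Fosb lies at 0.18, Fosl2 at 0.03 and Jund at -0.37, all as open points.

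Fos, the founding member of its family, separated torpor from every other state. The gene lies on contig NW_024429186.1 of assembly BCM_Maur_2.0 at 31690898 to 31694299, minus strand, with 4 exon blocks and 2124 bases of exon. Its level was 53.4, 46.8, 46.98, 46.4, 45.7 and 56.9 CPM in torpid animals 1 to 6. Among the 30 warm libraries it ran from 2.56 through a median of 5.83 to 15.1 CPM, the highest being refractory 4, an rRNA-rich library, and 13.6 CPM the highest without the rRNA-rich libraries. The lowest torpid animal therefore stood more than 30 CPM above the highest warm one. The groups did not overlap, and 0.301% of all genes tested likewise had every torpid library above every warm one. Relative to interbout euthermia (5.88 ± 2.37 CPM, SD, n = 6) torpor (49.4 ± 4.62) was 8.33-fold higher (log2 3.06 ± 0.28, SE; adjusted p = 2.45e-09). The log2 difference was 2.92 ± 0.28 against late pre-hibernation (adjusted p = 6.8e-09), 2.47 ± 0.27 against pre-hibernation (1.66e-07), 2.92 ± 0.28 against refractory (1.09e-08) and 3.27 ± 0.28 against long photoperiod (6.17e-10). Relative to their mean, the torpid animals were also the most alike for Fos. Their coefficient of variation was 9.35%, against 27.6% to 55.8% within the warm groups (13.0% for refractory animals without their rRNA-rich library). Their SD, 4.62 CPM, was larger than that of any warm group (1.41 to 3.96). Raw counts of Fos were 964 to 1416 in torpor and 32 to 325 in the warm libraries. Warm groups ranked pre-hibernation (8.91 ± 2.91 CPM), refractory (7.09 ± 3.96), late pre-hibernation (6.52 ± 2.53), interbout (5.88 ± 2.37) and long photoperiod (5.10 ± 1.41). Without the rRNA-rich libraries refractory animals were at 5.50 CPM and interbout animals at 6.55, so that refractory came below late pre-hibernation and interbout in the order. Each group mean differs from its neighbour by less than their SDs. The extremes, pre-hibernation against long photoperiod, differed by 0.80 ± 0.27 on the log2 scale, which did not pass (adjusted p = 0.122).

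The other Fos family genes behaved differently from Fos. Fosb, close kin of Fos and known for a long-lived splice form in the brain (contig NW_024429216.1, 11224071 to 11231566, plus strand, 5 exon blocks, 3706 bases of exon), was scarce throughout, with 2 to 67 raw counts per library. The torpid animals had 1.70, 0.83, 1.48, 0.92, 2.25 and 3.59 CPM, and the warm libraries 0.594 to 2.30 CPM with a median of 1.37. Only torpid animal 6 lay above the warm range, and 26 of the 30 warm libraries lay above the lowest torpid one. The log2 difference from interbout euthermia was 0.18 ± 0.33 (adjusted p = 0.871), with an interval of 2 SE from -0.489 to 0.848. Over the 5 comparisons it lay between 0.18 and 0.43 and none passed.

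Fosl2, which encodes Fra-2, rose in torpor against refractory and long photoperiod animals only. It lies on contig NW_024429205.1 at 21349614 to 21371992, plus strand, with 5 exon blocks and 7330 bases of exon. A total of 112 of its exon bases overlap the antisense gene LOC121133771, whose reads the unstranded counting cannot tell apart from those of Fosl2. Torpid animals had 5.77, 7.48, 8.09, 6.40, 13.6 and 8.89 CPM. Interbout animals had 6.56 to 11.7 CPM with a median of 7.74, covering most of the torpid range, and the difference was 0.03 ± 0.21 on the log2 scale (adjusted p = 0.97; interval of 2 SE -0.378 to 0.444). Long photoperiod animals had 3.21 to 4.99 CPM, below all 6 torpid animals (as for 3.65% of all genes), and torpor was 2.07-fold higher (log2 1.05 ± 0.21; adjusted p = 0.000798). Refractory animals had 3.25 to 7.54 CPM, and torpor was 1.61-fold higher (log2 0.69 ± 0.21; adjusted p = 0.025). The refractory call was lost without torpid 5 (0.111), refractory 1 (0.069) or refractory 5 (0.0548), or when the 2 groups were fitted alone (0.154). The differences from late pre-hibernation (0.26 ± 0.21) and pre-hibernation (0.25 ± 0.21) did not pass.

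Fosl2 was also the only gene of the 10 that differed between warm groups. Relative to long photoperiod (4.03 ± 0.72 CPM) it rose in interbout euthermia (8.20 ± 1.86 CPM; log2 1.02 ± 0.21, adjusted p = 0.00547; background 1.21% higher), in late pre-hibernation (6.97 ± 0.71; 0.79 ± 0.21, adjusted p = 0.0225; background 2.25%) and in pre-hibernation (7.01 ± 2.25; 0.80 ± 0.21, adjusted p = 0.0303; background 1.61%). Refractory animals (5.33 ± 1.57 CPM) did not differ from long photoperiod past the threshold (0.36 ± 0.21; adjusted p = 0.483). The order of group means was torpid (8.37 ± 2.79 CPM), interbout, pre-hibernation, late pre-hibernation, refractory and long photoperiod, and no neighbouring pair in that order passed. For the other 9 genes, 0 of 90 tests between warm groups passed with edgeR, 0 with DESeq2 and 1 with limma voom, for Atf3. At an unadjusted p under 0.05 there were 9 of the 90, for Fos, Csrnp1 and Zfp36.

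Jun, the main partner of Fos in AP-1 (contig NW_024429197.1, 44012991 to 44014873, plus strand, 1 exon of 1883 bases), rose against every warm group, with wide spread among the torpid animals. They had 48.9, 94.3, 48.25, 28.2, 30.7 and 26.1 CPM. The 27 warm libraries that were not rRNA-rich had 6.68 to 26.3 CPM, and the 3 rRNA-rich ones had 31.1, 32.7 and 34.9 CPM. Torpid animals 1, 2 and 3 were above all 30 warm libraries, and 5 of 6 were above the 27. Torpor (46.1 ± 25.7 CPM) was 3.63-fold higher than interbout euthermia (12.9 ± 9.08), a log2 difference of 1.86 ± 0.36 (adjusted p = 0.00122). The other differences were 1.51 ± 0.35 against late pre-hibernation (adjusted p = 0.00729), 1.44 ± 0.35 against pre-hibernation (0.0105), 1.48 ± 0.36 against refractory (0.00541) and 1.95 ± 0.36 against long photoperiod (0.000335). Without torpid animal 2 the pre-hibernation call was lost (1.102, adjusted p = 0.0599), and fitting torpid and refractory animals alone lost that call narrowly (0.0526).

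Junb, an AP-1 subunit that tempers Jun and is itself induced early (contig NW_024429237.1, 1773033 to 1775903, minus strand, 1 exon of 2871 bases), was present in all 6 torpid animals above all 30 warm libraries. Torpid animals had 7.65, 15.3, 5.00, 5.78, 5.19 and 3.43 CPM, against 0.27 to 3.12 CPM in the warm libraries, with a median of 1.66. The groups did not overlap (as for 0.301% of all genes), although the lowest torpid animal exceeded the highest warm one by little. Warm libraries held as few as 1 raw count of Junb and torpid ones 64 to 315. Torpor (7.06 ± 4.26 CPM) was 4.797-fold higher than interbout euthermia (1.48 ± 0.73; log2 2.26 ± 0.45; adjusted p = 0.00145). The log2 difference was 1.85 ± 0.44 against late pre-hibernation (0.00765), 2.18 ± 0.44 against pre-hibernation (0.00174), 2.08 ± 0.45 against refractory (0.00179) and 2.17 ± 0.44 against long photoperiod (0.00102). Including the mean levels of neuron and oligodendrocyte markers as covariates lost the late pre-hibernation call (1.49, adjusted p = 0.0609). Within the long photoperiod group Junb was 2.03 to 3.09 CPM in animals 1 to 3 and 0.50 to 0.96 CPM in animals 4 to 6, and the labels do not say which of them were taken at which time. Against animals 1 to 3 alone the difference was 1.54 (adjusted p = 0.0858), and against animals 4 to 6 alone it was 3.21.

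Jund, the Jun family member that most tissues express steadily (contig NW_024429185.1, 1819844 to 1821828, plus strand, 1 exon of 1985 bases), did not pass in any comparison. Torpid animals had 19.6, 19.2, 17.03, 18.01, 17.6 and 15.1 CPM. The warm libraries other than the rRNA-rich ones had 13.3 to 28.2 CPM, so that the torpid animals sat inside the warm range. The rRNA-rich libraries had 50.4, 58.1 and 58.5 CPM, far above the rest of their groups. Log2 differences ran from -0.45 ± 0.32 (against refractory, adjusted p = 0.345) to -0.08 ± 0.31 (against late pre-hibernation, adjusted p = 0.957). Against interbout euthermia the value was -0.37 ± 0.31, with an interval of 2 SE from -0.997 to 0.263, and it became 0.13 without the rRNA-rich libraries. Together with Fosb, Jund was 1 of the 2 genes with no difference among the 6 groups past the threshold (adjusted p = 0.755 for Jund and 0.84 for Fosb). The other 8 genes passed that test, where 14.6% of all genes did.

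Atf3, a stress-responsive factor that binds AP-1 and CRE-like sites (contig NW_024429266.1, 3748169 to 3760947, plus strand, 4 exon blocks, 1908 bases of exon), had a smaller difference than Fos, Jun or Junb. Torpid animals had 38.4, 31.9, 28.8, 35.9, 32.7 and 46.5 CPM, and the warm libraries 5.82 to 31.8 CPM with a median of 22.6. All 6 torpid animals lay above every interbout, late pre-hibernation, refractory and long photoperiod library, and 5 of 6 above every pre-hibernation library. Of all genes tested, 1.36%, 2.25%, 2.6% and 3.65% had all 6 torpid animals above these 4 groups, taken in that order, and 2.01% above pre-hibernation. The 2 lowest warm values, 5.82 and 9.80 CPM, were those of rRNA-rich refractory 4 and pre-hibernation 5. Torpor (35.7 ± 6.27 CPM) exceeded interbout euthermia (22.0 ± 2.28) by 0.70 ± 0.21 on the log2 scale, or 1.62-fold, which did not pass (adjusted p = 0.0538). It passed without the rRNA-rich libraries (0.68, adjusted p = 0.000391), with DESeq2 (0.0139) and with limma voom (0.000594). Differences against late pre-hibernation (0.75 ± 0.21, adjusted p = 0.034), refractory (0.62 ± 0.21, 0.0425) and long photoperiod (0.77 ± 0.21, 0.0165) passed, and that against pre-hibernation (0.59 ± 0.21, 0.11) did not. The margin of these calls was narrow, while the size of the difference changed less. The late pre-hibernation call was lost on leaving out any of the 6 late pre-hibernation animals or torpid 1, 4 or 6 (adjusted p 0.0546 to 0.0971, log2 difference 0.657 to 0.77). The refractory call was lost without torpid 1, 2, 4, 5 or 6 or refractory 3 or 4 (0.057 to 0.118, with 0.443 to 0.647). The long photoperiod call was lost without long photoperiod 2 or 3 or torpid 6 (0.0545 to 0.0652, with 0.667 to 0.691), and against long photoperiod 4 to 6 alone (0.317, with 0.588). With no filter beyond 1 count all 3 calls were lost (0.0578 to 0.105), and over all alternatives the adjusted p ran from 5.23e-05 to 0.107, from 0.0115 to 0.166 and from 5.12e-06 to 0.317 in the same order.

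Egr1, the zinc finger factor (contig NW_024429198.1, 64092002 to 64095773, plus strand, 2 exon blocks, 3116 bases of exon), rose against every warm group. Torpid animals had 7.58, 17.7, 8.09, 5.04, 4.77 and 3.80 CPM, and the 30 warm libraries 0.519 to 3.40 CPM with a median of 1.43. The groups did not overlap (as for 0.301% of all genes), though the level was low, with 71 to 364 raw counts in torpor. Torpor (7.83 ± 5.11 CPM) was 5.38-fold higher than interbout euthermia (1.46 ± 0.61; log2 2.43 ± 0.41; adjusted p = 0.000231). The log2 difference was 2.32 ± 0.41 against late pre-hibernation (0.000334), 2.58 ± 0.42 against pre-hibernation (8.8e-05), 2.00 ± 0.41 against refractory (0.00123) and 2.21 ± 0.41 against long photoperiod (0.000292). As for Junb, long photoperiod animals 1 to 3 (1.46 to 3.40 CPM) were above animals 4 to 6 (0.81 to 1.00 CPM). The difference was 1.66 against animals 1 to 3 alone (adjusted p = 0.0446) and 3.08 against animals 4 to 6 alone.

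Csrnp1 (contig NW_024429267.1, 56759529 to 56771320, minus strand, 8 exon blocks, 3745 bases of exon) about doubled against interbout euthermia. Torpid animals had 23.0, 25.4, 15.8, 12.0, 19.1 and 29.5 CPM, and the warm libraries 6.49 to 18.3 CPM with a median of 11.5. Of the torpid animals, 4 were above all warm libraries, while torpid 4 was below 13 of the 30. Torpor (20.8 ± 6.44 CPM) was 2.01-fold higher than interbout euthermia (10.3 ± 1.06; log2 1.01 ± 0.17; adjusted p = 0.000248). The difference was 0.89 ± 0.17 against refractory (0.000671) and 1.05 ± 0.17 against long photoperiod (6.9e-05). Smaller differences, 0.65 ± 0.17 against late pre-hibernation (0.0178) and 0.63 ± 0.17 against pre-hibernation (0.023), passed by a narrow margin. Leaving out late pre-hibernation 4, torpid 2 or torpid 6 cost the late pre-hibernation call (adjusted p 0.0527 to 0.074, log2 difference 0.532 to 0.586), and leaving out pre-hibernation 1, 2, 3 or 5 or torpid 1, 2 or 6 cost the pre-hibernation call (0.0517 to 0.0914, with 0.505 to 0.603). With no filter beyond 1 count the adjusted p were 0.0532 and 0.0616, and with the 2 groups fitted alone 0.0513 and 0.0764.

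Zfp36, the decay factor (contig NW_024429216.1, 7123740 to 7126141, plus strand, 2 exon blocks, 1757 bases of exon), rose in torpor with no overlap between the groups. Torpid animals had 84.98, 57.9, 53.8, 53.6, 53.3 and 50.6 CPM, and the 30 warm libraries 9.94 to 29.1 CPM with a median of 21.7. The 5 torpid animals below torpid 1 lay within 8 CPM of each other. Torpor (59.04 ± 12.9 CPM) was 2.58-fold higher than interbout euthermia (22.9 ± 3.23; log2 1.36 ± 0.16; adjusted p = 3.17e-07). The log2 difference was 1.38 ± 0.16 against late pre-hibernation (2.78e-07), 1.34 ± 0.16 against pre-hibernation (4.94e-07), 1.75 ± 0.16 against refractory (3.06e-09) and 1.64 ± 0.16 against long photoperiod (7.96e-09). Of the 10 genes, Fos, Junb, Egr1 and Zfp36 had every torpid animal above every warm library, as did 54 of the 17926 genes tested (0.301%). The calls for Fos, Egr1 and Zfp36 held under every alternative tried.

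**Figure D2:**
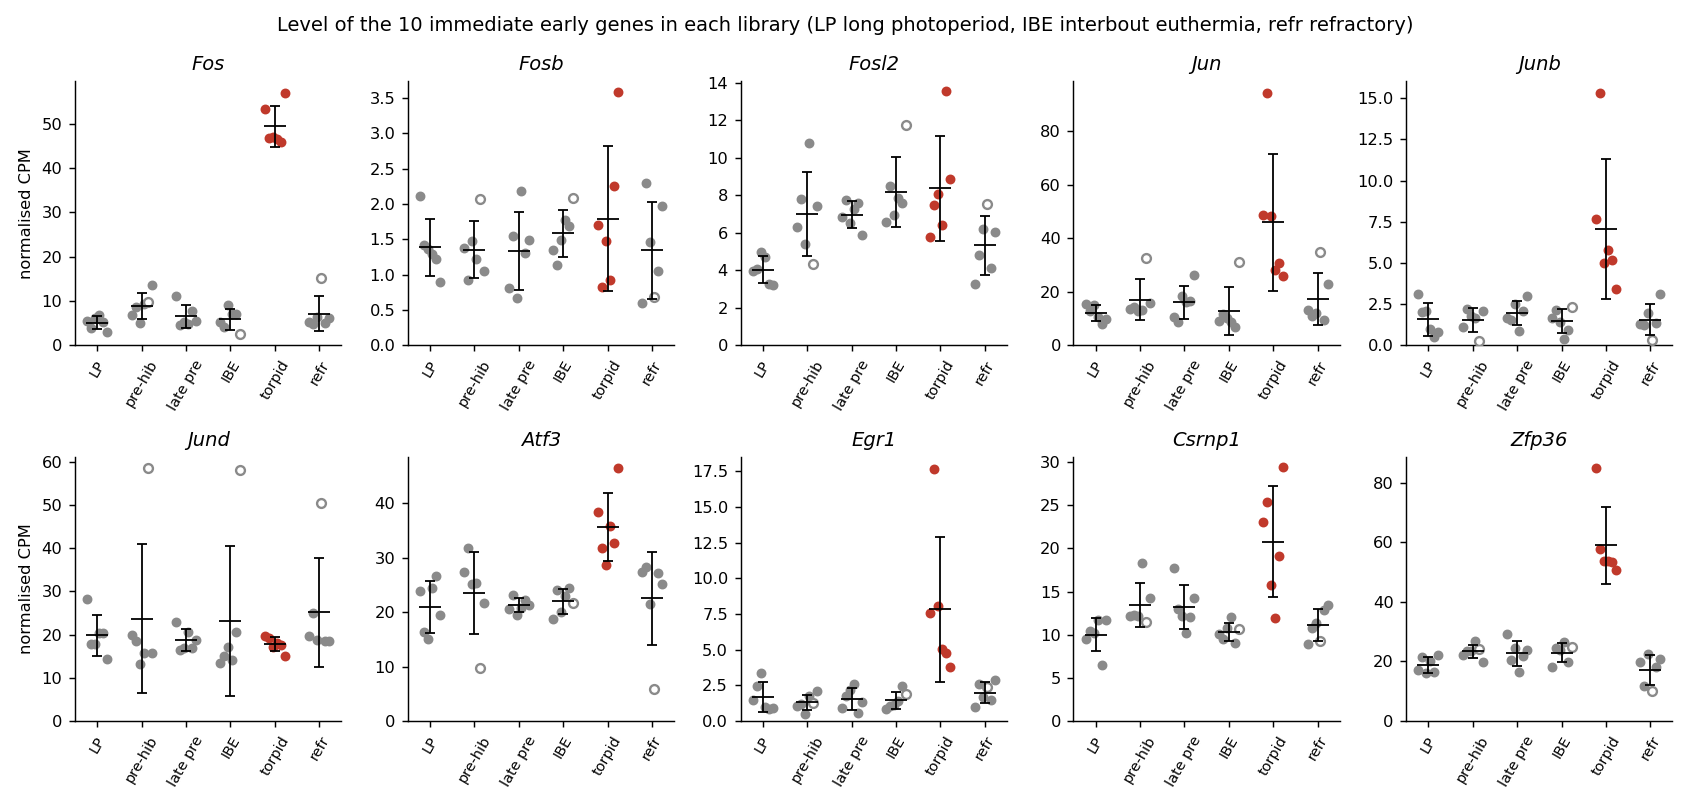
Normalised CPM of each of the 10 genes in all 36 libraries, 6 per group, with the mean and SD of each group; red points are torpid animals and open points the 3 rRNA-rich libraries. Red points stand clear of all others for Fos, Junb, Egr1 and Zfp36, and open points stand high for Jun and Jund.

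Per kb of exon, which allows genes to be compared, the order of the 10 changed in torpor. In interbout euthermia the highest were Zfp36 (13.1 CPM per kb), Jund (11.6) and Atf3 (11.5), and Fos (2.77) came after these and Jun. Without rRNA-rich interbout 6, Jund was at 8.12 CPM per kb and Atf3 at 11.57, so that Jund came after Atf3. In torpor Zfp36 (33.6 CPM per kb) was followed by Jun (24.5), Fos (23.2), Atf3 (18.7) and Jund (8.95). Egr1 (2.51) and Junb (2.46) stayed far lower than Fos and Jun although their fold changes were of similar size, and Fosb (0.484) was last in both states. Neighbours such as Jun and Fos in torpor differ by less than the SD of Jun, 13.6 CPM per kb.

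Because Fos and Jun proteins act as pairs, the 6 Fos and Jun family messengers were also summed per kb, as a description of messenger and not of protein. Their sum was 60.7 ± 14.8 CPM per kb in torpor (49.04 to 88.4), against group means of 20.2 to 27.1 in the warm groups. The warm libraries other than the rRNA-rich ones had sums of 14.8 to 28.2, below all 6 torpid animals. The rRNA-rich libraries had 49.9 to 52.7, within the torpid range, of which Jund alone made up 48.5% to 58.6%. Fos made up 39.9% of the sum in torpor on average (24.9% to 51.9%), against means of 11.9% to 16.8% in the warm groups. Jund made up 15.2% in torpor (10.96% to 18.5%) and no less than 32.1% in any warm library. The share of Jun was 38.2% in torpor and 28.4% to 36.3% in the warm groups, with overlapping ranges. Shares are bound to add up, and the level of Jund itself lay inside the warm range in all 6 torpid animals.

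**Figure D3:**
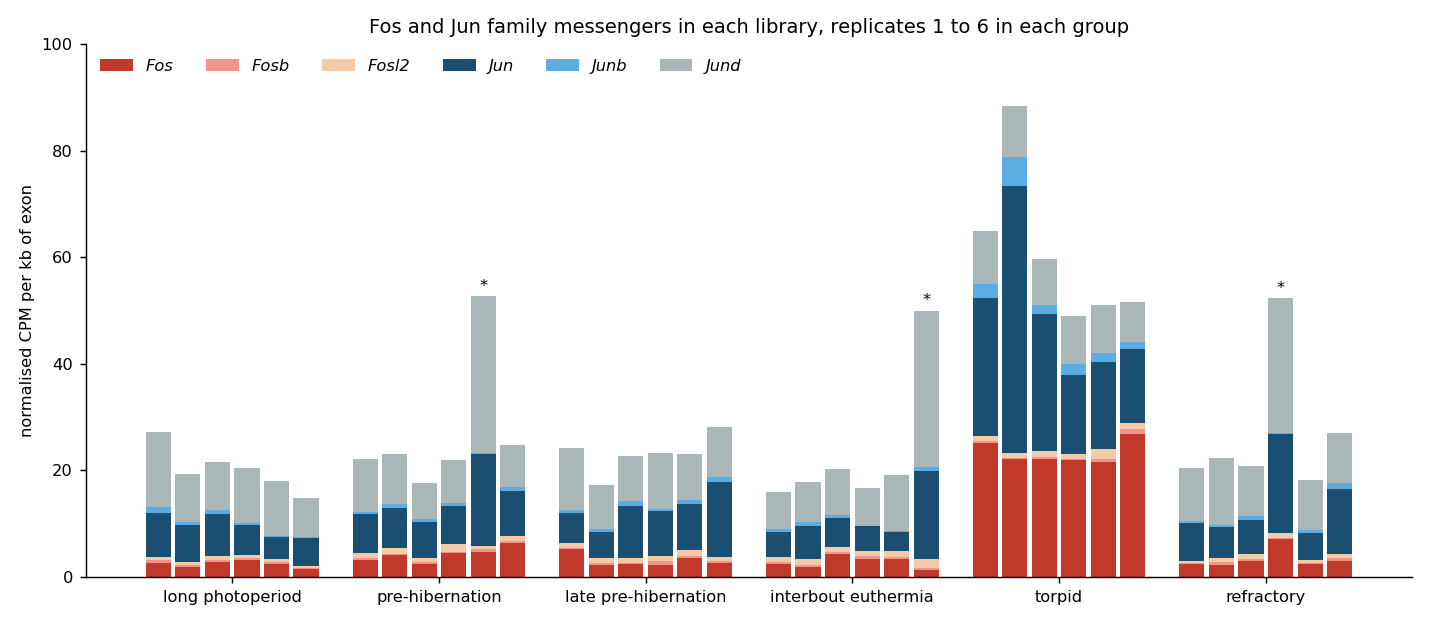
Stacked CPM per kb of exon for the 6 Fos and Jun family genes, 1 bar per library, replicates 1 to 6 in each group; asterisks mark the 3 rRNA-rich libraries. Bars of torpid animals reach 49.04 to 88.4 with large Fos and Jun parts, while Jund makes up the largest part of most warm bars.

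The torpid animals did not follow 1 common order. Torpid 2 was the highest of the 6 for Jun, Junb and Egr1, at 94.3, 15.3 and 17.7 CPM, but not for Fos, where 3 of the others were higher. Torpid 6 was the highest for Fos, Fosb, Atf3 and Csrnp1, and the lowest for Jun, Junb, Egr1, Zfp36 and Jund. Torpid 1 was the highest for Zfp36, at 84.98 CPM. Relative to the median of the 30 warm libraries, Fos ranged narrowly from 2.97 to 3.28 on the log2 scale over the 6 animals, whereas Egr1 ranged from 1.41 to 3.63. The spread in torpor was thus small for Fos (coefficient of variation 9.35%) and Jund (9.26%), and large for Egr1 (65.2%), Junb (60.4%), Fosb (57.0%) and Jun (55.8%). All 6 were taken at 1 stated time into the bout, and the labels give no body temperature for single animals.

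**Figure D4:**
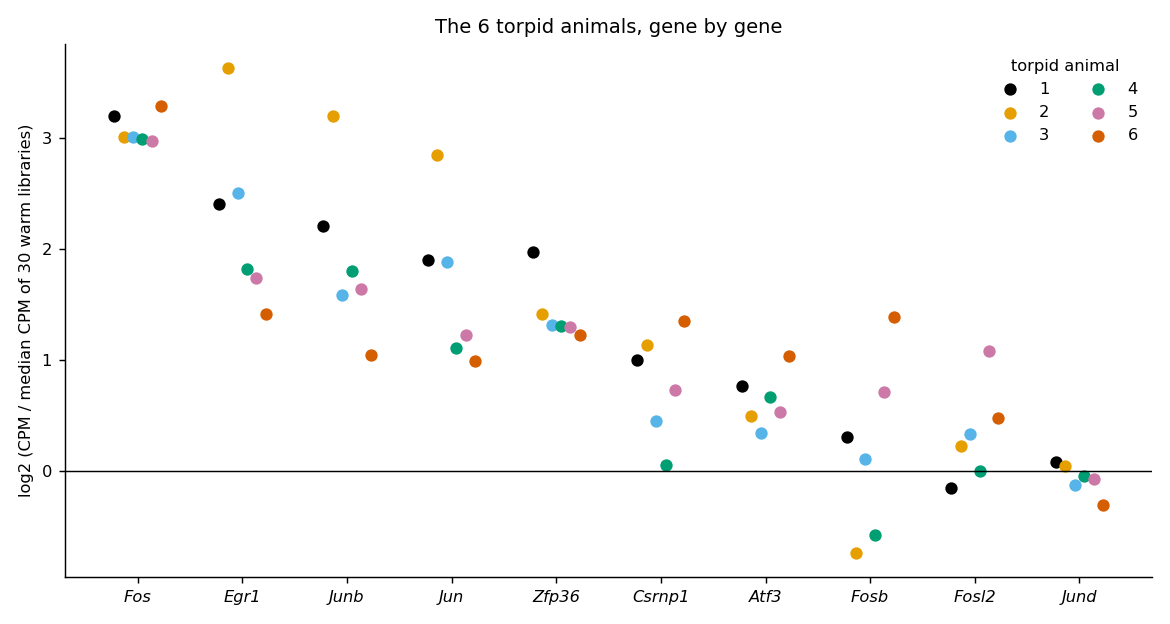
Level of each gene in each of the 6 torpid animals, as log2 of its CPM over the median CPM of the 30 warm libraries; 1 colour per animal, and the line at 0 is the warm median. The 6 animals coincide for Fos, near 3, and fan out for Egr1, Junb and Jun, where animal 2 is highest and animal 6 lowest.

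Other genes of the pathway were read from 6 lists, beside the whole table. Of all genes tested, 2.93% were lower in torpor than in interbout euthermia, 2.82% than in late pre-hibernation, 3.32% than in pre-hibernation, 9.07% than in refractory and 4.73% than in long photoperiod animals, and the shares that were higher are those given above. Among 38 other immediate early genes, 4 rose against interbout euthermia (Ccn1, Dusp1, Klf10 and Btg2) and 1 fell (Btg1), with a median of 0.08 against 0.013 over all genes. At an unadjusted p under 0.05 there were 9 rises and 10 falls, with DESeq2 6 and 3, and with limma voom 8 and 9, so that the balance of rises over falls depends on the test. The counts higher and lower were 7 and 3 against late pre-hibernation, 5 and 2 against pre-hibernation, 8 and 4 against refractory and 8 and 5 against long photoperiod. Ccn1, a secreted matrix protein, had 15.0 ± 3.85 CPM in torpor and 6.04 ± 1.06 in interbout euthermia (log2 1.32 ± 0.20; adjusted p = 5.05e-05), with all 6 torpid animals above every warm library. Dusp1, a phosphatase that switches off MAP kinases, had 160.1 ± 21.2 CPM in torpor and 72.7 to 78.9 in the means of the warm groups (log2 1.02 ± 0.23 against interbout euthermia; adjusted p = 0.00473). Its 6 torpid animals, at 128.1 to 190.9 CPM, were also above every warm library. Such separation, seen for Ccn1 and Dusp1, held for 0.301% of all genes tested. Klf10 (0.71 ± 0.14, adjusted p = 0.000951) and Btg2 (0.45 ± 0.10, 0.00551), both of them genes that restrain cell growth, rose against all 5 warm groups. Nr4a1, an orphan nuclear receptor induced by activity, rose against 3 of the 5 groups, and against interbout euthermia its difference was 0.60 ± 0.27 (0.277). Errfi1, an inhibitor of EGF receptor signalling, fell against 4 of the 5, and was -0.73 ± 0.22 against interbout euthermia (0.0532).

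Partners and rivals of the AP-1 proteins had falls and no rise against interbout euthermia. With 1.13% of all genes tested higher there and 2.93% lower, 0 rises among 16 genes is near the share over all genes. Of 16 other AP-1 and partner bZIP genes, 0 rose and 4 fell against interbout euthermia (Jdp2, Batf2, Maf and Mafg), with a median of -0.245. The count of rises was also 0 at an unadjusted p under 0.05, with DESeq2 and with limma voom. Jdp2, which pairs with Jun and represses AP-1 targets, had 4.75 ± 0.86 CPM in torpor and 9.41 ± 2.91 in interbout euthermia (log2 -0.98 ± 0.20; adjusted p = 0.00162). All 6 torpid animals were below every warm library for Jdp2, as for 0.703% of all genes, and it fell against all 5 warm groups. Mafg, a small Maf protein, also fell against all 5 (-0.51 ± 0.13 against interbout euthermia, 0.013), and Maf against 4 of 5 (-0.75 ± 0.20, 0.0255). Batf2 fell against interbout euthermia alone (-0.95 ± 0.24, 0.0179). Across the other comparisons the counts higher and lower were 0 and 2, 0 and 3, 1 and 3, and 1 and 4, in the order late pre-hibernation, pre-hibernation, refractory and long photoperiod.

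The kinases and factors that act upstream through serum and CRE elements had no rise against interbout euthermia. Over all genes tested 1.13% were higher there and 2.93% lower, so 0 rises in a list of 29 is near that share. Of 29 genes, 0 rose there and 3 fell: Elk4, a partner of serum response factor (-0.80 ± 0.22, adjusted p = 0.0285), Mapk14, the p38 kinase (-0.57 ± 0.15, 0.0161), and Crem, a CRE-binding factor (-0.55 ± 0.15, 0.0291). At an unadjusted p under 0.05 the rises numbered 1, and with DESeq2 and limma voom 0. Against late and early pre-hibernation, 0 passed in either direction with edgeR and DESeq2, while limma voom gave 6 falls and 0 rises in the former and 3 falls and 1 rise in the latter. The unadjusted counts there were 5 and 6 falls and 0 rises. Against refractory animals 4 rose and 8 fell, and against long photoperiod 1 rose and 3 fell. The Egr corepressors Nab1 and Nab2 passed in 0 of the 5 comparisons with edgeR and DESeq2, whereas limma voom and an unadjusted p under 0.05 each gave 1 fall against interbout euthermia and 1 against late pre-hibernation.

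Among 21 genes of AU-rich element binding and messenger decay, the class to which Zfp36 belongs, 0 rose and 2 fell against interbout euthermia. These were Dcp2, the decapping enzyme (-0.72 ± 0.13, adjusted p = 0.000516), and Cnot6, a deadenylase of the CCR4-NOT complex (-0.61 ± 0.14, 0.00766). Both fell against all 5 warm groups, and all 6 torpid animals (8.9 to 11.8 CPM) were below every warm library for Dcp2 (0.703% of all genes). The rises there numbered 1 at an unadjusted p under 0.05 and 0 with DESeq2 and limma voom. The 0 rises against interbout euthermia with edgeR are near the 1.13% of all genes tested that were higher. Counts higher and lower were 0 and 2, 0 and 3, 3 and 3, and 1 and 2 in the other 4 comparisons, taken in the same order.

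Of 14 tested genes that textbooks list as AP-1 or Egr1 targets, 0 passed in either direction against interbout euthermia with edgeR and DESeq2. A count of 0 among 14 is near the shares over all genes with edgeR, 1.13% higher and 2.93% lower. An unadjusted p under 0.05 gave 0 rises and 2 falls, and limma voom 1 rise and 0 falls. The median was 0.01, against 0.013 for all genes. The counts higher and lower were 0 and 1 against late pre-hibernation, 0 and 2 against pre-hibernation, 4 and 2 against refractory and 2 and 2 against long photoperiod. In the comparisons with late pre-hibernation and pre-hibernation, rises numbered 1 and 1 at an unadjusted p under 0.05, 0 and 0 with DESeq2, and 2 and 3 with limma voom. Ccnd1, the cell cycle gene for cyclin D1, fell against 4 of the 5 warm groups (-1.20 ± 0.19 against refractory, adjusted p = 6.62e-05; -0.54 ± 0.19 against interbout euthermia, 0.119). Penk, which encodes the enkephalin precursor, fell against 3 (-1.91 ± 0.26 against refractory, 4.86e-06; -0.56 ± 0.26 against interbout euthermia, 0.283).

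**Figure D5:**
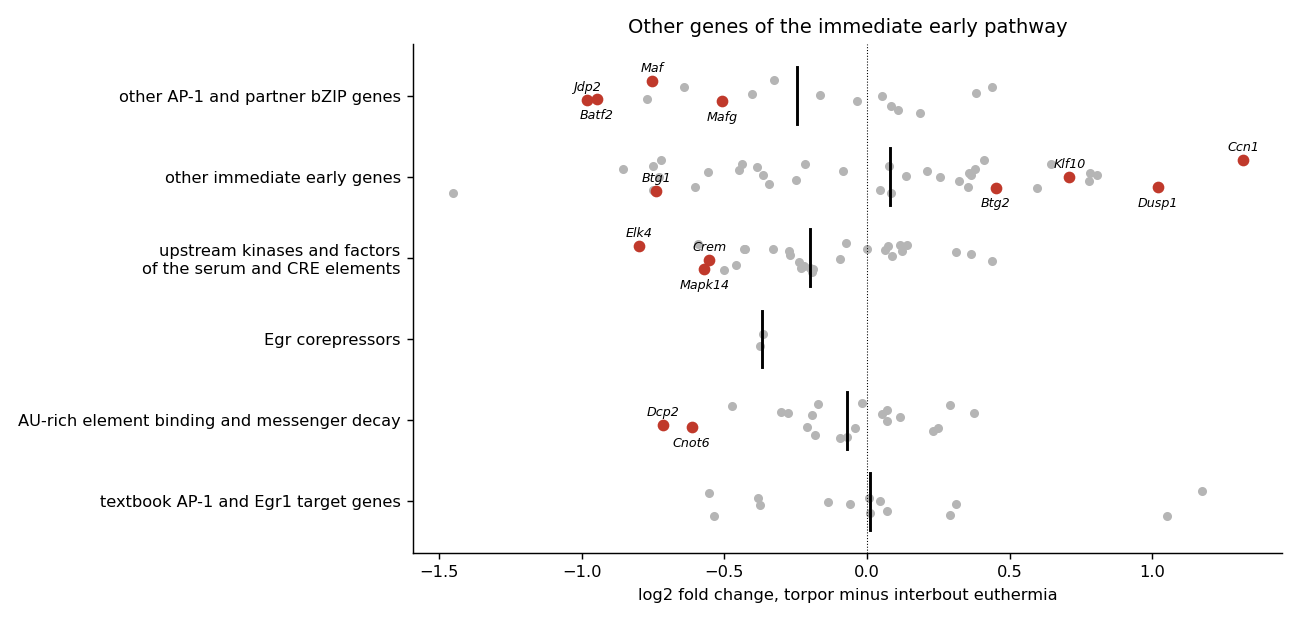
Log2 fold change of torpor against interbout euthermia for every tested gene of the 6 lists, 1 point per gene; red named points passed an adjusted p of 0.05 and black bars are list medians. Points to the right of 0 are higher in torpor; Ccn1 and Dusp1 lie farthest right among the named genes, and Jdp2 and Batf2 farthest left.

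Among 11717 candidates, the genes whose pattern over the 6 groups was most like that of Fos were Jun, Dnajb5, Zfp36, Srsf5 and Gem. Scarce genes, averaging under 1 on the log2 CPM scale, were not candidates, and this left out Junb and Egr1. Their likeness to Fos was not ranked, so the order does not place the named genes ahead of them. Likeness was the root mean square difference of the 6 group means of log2 CPM, each centred on its own average, and was 0.533 for Jun, 0.597 for Dnajb5, 0.606 for Zfp36, 0.637 for Srsf5 and 0.668 for Gem. Dnajb5, a heat shock chaperone of the DnaJ class, had group means of 39.2 CPM in torpor and 8.12 to 16.6 CPM in the warm groups. Srsf5, a splicing factor, had 290.2 CPM in torpor and 108.9 to 115.3 CPM elsewhere. Gem, a small GTP-binding protein, had 9.52 CPM in torpor and 3.07 to 4.03 CPM elsewhere. Most like Zfp36 were Etnppl (0.150), Kiaa0895l (0.163) and Srsf5 (0.168). Only 6 means enter each value, 1 of them far from the rest, so the order among the near neighbours is loose.

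Markers of other cell types were set beside these results, as the captured strip can hold more than tanycytes. Of the 106 markers tested in 10 lists, 0 rose against interbout euthermia and 1 fell, the erythrocyte gene Alas2, named here after its values were seen. As 1.13% of all genes tested were higher and 2.93% lower, these counts are not above the shares over all genes. At an unadjusted p under 0.05 there were 4 rises and 6 falls, with DESeq2 0 and 2, and with limma voom 1 and 0. Markers higher and lower numbered 2 and 1 against late pre-hibernation (20 and 6 with limma voom), 3 and 1 against pre-hibernation (14 and 1), 7 and 9 against refractory (9 and 8) and 3 and 10 against long photoperiod (10 and 11). With edgeR the shares over all genes were 1.63% and 2.82%, 1.54% and 3.32%, 6.11% and 9.07%, and 4.32% and 4.73%, in that order. Of the 10 astrocyte markers, limma voom had 8 higher against late pre-hibernation and 6 against pre-hibernation, where edgeR had 0 and 1 and an unadjusted p under 0.05 gave 4 and 7. Their median log2 differences there were 0.42 and 0.472, and 0.202 against interbout euthermia, and their sum was 3276 to 5578 CPM in late pre-hibernation and 3486 to 4321 CPM in pre-hibernation. Neuron markers (17) summed to 589 to 933 CPM in torpor and 506 to 950 CPM in interbout euthermia. Astrocyte markers (10) summed to 4453 to 6129 and 3794 to 6054 CPM, oligodendrocyte markers (8) to 276 to 421 and 143 to 438 CPM, and microglial markers (13) to 287 to 438 and 311 to 684 CPM. Endothelial markers (9) summed to 219 to 330 and 222 to 329 CPM, mural and fibroblast markers (10) to 43.04 to 60.03 and 38.6 to 46.3 CPM, and motile cilia markers of ependymal cells (12) to 2788 to 3495 and 2688 to 3251 CPM. Erythrocyte markers (5 summed, 3 tested) came to 2.67 to 6.27 and 2.99 to 38.6 CPM. Pituitary markers (10 summed, 9 tested) came to 94.2 to 198.4 and 109 to 214 CPM. Their sum reached 1846 CPM in refractory and 2414 CPM in long photoperiod animals. Of the 9 tested, 5 fell in torpor against each of these 2 groups. No marker was at 0 in all libraries of a group. The part of astrocyte, erythrocyte and pituitary RNA in the results was not tested. With mean neuron and oligodendrocyte marker levels as covariates, 6 of the 10 genes passed against interbout euthermia, 6 against pre-hibernation and 8 against long photoperiod, the numbers found without them. Against late pre-hibernation the count went from 7 to 5, with Junb (adjusted p = 0.0609) and Atf3 (0.107) lost, and against refractory animals from 8 to 7, with Atf3 (0.128) lost.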

How the data were processed

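Per the file headers, the deposited tables hold raw counts from featureCounts 2.0.1: read pairs over exons, added up by gene, strand ignored, on RefSeq's annotation of BCM_Maur_2.0, from alignments whose names carry STAR. Headers and labels give no version of the aligner. Per the labels, RNA integrity numbers were 7 to 9. Of 32340 genes, 31895 had their name in the RefSeq gene table. Gene positions, exon blocks and exon lengths are those of the count tables. Sequences were not used here.

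The filter was filterByExpr (17926 genes tested), the scaling TMM, and the model 1 robust quasi-likelihood fit of 6 group means in edgeR 4.0.16 (R 4.3.3). P values were adjusted by Benjamini-Hochberg over all genes tested, with a threshold of 0.05; another tool is named where its p is given. CPM use TMM library sizes, log2 CPM a prior count of 2, and mean ± SD is over 6 animals. The workflow was tested on simulated data. Precision follows from the number of animals and from raw counts, which are given for scarce genes.

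The 10 genes, the 6 pathway lists and the 10 marker lists were chosen with earlier results of these data known. All 10 genes are named. Of each pathway list, up to 6 genes that passed against interbout euthermia are named by smallest p, and up to 2 more that passed in at least 3 of the 5 torpor comparisons. Likeness was measured among genes with an informative name and a mean log2 CPM of at least 1. Alternatives were RLE factors, DESeq2 1.42.0, voom with quality weights (limma 3.58.1), a filter of at least 1 CPM in 6 libraries or none beyond 1 count, a block for replicate number, marker covariates, fits without the rRNA-rich libraries (over 5% of counts on ribosomal RNA genes), fits of 2 groups only, of long photoperiod 1 to 3 or 4 to 6 only, and fits without 1 library at a time. Python 3.11.15 with pandas 2.3.3 and matplotlib 3.10.9 made the tables and figures.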

Additional observations from a re-analysis of the deposited data

Results flagged for a closer look

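Within a group of 6, a library was picked out when its gap to the nearest of the others, as a part of the whole range, was above Dixon's critical value. Of 60 groups (10 genes in 6 groups), 12 held such a library. Chance alone gives about 1 in 20 where groups are independent and values normally distributed. Whether the CPM meet this was not tested, and the same libraries recur across genes, so that rate is only a guide. Of the 12, 8 are in the rRNA-rich libraries. Jund stood highest in each of the 3, at 58.545 CPM in pre-hibernation 5 (others 13.281 to 19.936), 58.086 CPM in interbout 6 (others 13.47 to 20.703) and 50.36 CPM in refractory 4 (others 18.526 to 24.926). Jun was highest in pre-hibernation 5 at 32.735 CPM (others 12.762 to 15.817) and in interbout 6 at 31.08 CPM (others 6.676 to 11.633). Fos was highest in refractory 4 at 15.074 CPM (others 4.767 to 6.31), and Atf3 was lowest there at 5.824 CPM (others 21.506 to 28.257). Fosl2 was highest in interbout 6 at 11.745 CPM (others 6.557 to 8.488).

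The other 4 are in torpid animals. Torpid 2 stood above the rest for Jun at 94.333 CPM (others 26.085 to 48.902), for Junb at 15.293 CPM (others 3.428 to 7.654) and for Egr1 at 17.672 CPM (others 3.803 to 8.092). Torpid 1 stood above the rest for Zfp36 at 84.985 CPM (others 50.616 to 57.872). Without torpid 2 the log2 differences from interbout euthermia were 1.51 for Jun, 1.87 for Junb and 2.00 for Egr1, and all 3 passed.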

How the results depend on the processing

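Across the alternatives, torpor had 6 or 7 of the 10 genes higher than interbout euthermia, 5 to 7 than late pre-hibernation, 4 to 7 than pre-hibernation, and 7 or 8 than long photoperiod. Against refractory animals it had 6 to 8 on leaving out single libraries and 5 with the 2 groups fitted alone. The count of all genes that passed moved more. With no filter beyond 1 count it was 482 against interbout euthermia (728 as reported), 522 against late pre-hibernation (797), 560 against pre-hibernation (872) and 1066 against long photoperiod (1622). Without the rRNA-rich libraries it was 1601, 2394, 1799, 3787 and, against the mean of the warm groups (1735 as reported), 3296. With limma voom it was 1927, 3449, 2451, 4275 and 3663 in the same order, and with DESeq2 1131 against interbout euthermia and 1239 against late pre-hibernation. With the 2 groups alone it was 1645 against late pre-hibernation, 598 against refractory (2720) and 2934 against long photoperiod. Long photoperiod 1 to 3 alone gave 836 and 4 to 6 alone 602. Fewer libraries enter the fits of 2 groups alone or of part of a group, and counts from the fits of 2 groups moved in both directions. The cause of these moves was not tested.

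Some differences that did not pass changed sign under an alternative. Fosb against interbout euthermia became -0.14 without torpid 6 (to 0.318 without torpid 2). Fosl2 against interbout euthermia became -0.027, -0.018 and -0.164 without interbout 1, interbout 3 and torpid 5, and reached 0.149 without interbout 6. Jund against interbout euthermia became 0.127 without the rRNA-rich libraries, 0.143 with limma voom and 0.132 without interbout 6, the lowest value being -0.485 without interbout 1. Against pre-hibernation it became 0.081, 0.12 and, without pre-hibernation 5, 0.094, the lowest being -0.52 without pre-hibernation 3. With marker covariates it became 0.096 against late pre-hibernation, and with limma voom 0.002 against the mean of the warm groups.

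Equal replicate numbers did not pair animals: over 90 pairs of libraries that share a number the mean correlation of deviations was -0.009, and 2 of 36 libraries were closest to their own number. With the number as a block, 634, 672, 753, 2002 and 1464 genes passed in the 5 comparisons, and the only calls of the 10 genes that were lost were Atf3 against late pre-hibernation (adjusted p = 0.0555) and against refractory (0.0618). Low counts limit Fosb, Junb and Egr1 in the warm groups.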
